A study of Mus musculus with 4 samples.

Results

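The genes described here are 38 genes of the cell division cycle, 15 that act in DNA replication and 23 that act in mitosis, among 55487 genes of the deposited count table. They were listed by symbol for their textbook functions, and all 38 symbols matched 1 gene each in the table through the GENCODE M21 annotation of the mouse build GRCm38. The values come from bulk RNA-seq of skeletal stem cells of wild-type mice, sorted by flow cytometry from collagenase-digested metaphyses of long bones. There were 2 libraries from sham-operated mice (sham 1 and 2) and 2 from ovariectomized mice (ovariectomy 1 and 2), and all carried the time 8 weeks, which the labels do not tie to age or to surgery. Ovariectomy takes away ovarian oestrogen and is commonly used in mice to model bone loss after menopause. The labels do not say how many animals or pools stand behind a library. Each p-value therefore sets a group difference against the spread between libraries, which may be technical.

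Before a cell divides it copies its DNA once. In late G1 phase the helicase Mcm2-7 is loaded on replication origins with the help of Cdc6, cyclin E drives entry into S phase, and Cdc45 and the GINS complex switch the helicase on. Ribonucleotide reductase and thymidylate synthase supply nucleotides, and Pcna clamps the polymerases to DNA. Mitosis is driven by cyclin B with Cdk1 and by Aurora and Polo kinases, and ends when the anaphase-promoting complex with Cdc20 marks cyclin B and securin for destruction. In the growth plate, cells of the proliferating columns divide while skeletal stem cells are held to divide rarely. In bulk RNA, fewer dividing cells and less of these transcripts per cell cannot be told apart.

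The libraries held between 18291436 and 23721078 counts, and a single count was worth between 0.0423 and 0.0519 CPM (the count relative to the TMM-scaled library total). Of the genes of the stained antigens, Itgav (CD51) and Cd200 had between 1386 and 6841 counts in each library, and Cd200 was called lower after ovariectomy. Of the antigens selected against in such sorts, Thy1 (CD90) had between 3 and 5 counts, and 0 of the other 4 were called by edgeR. At an unadjusted p under 0.05 there were 2 of these 4, against 18.4% of all genes. Eng (CD105) measured 21.6 and 52.1 CPM in the sham pair, 75.2 and 83.1 CPM in the ovariectomy pair (adjusted p = 0.150 in edgeR), and Enpep (6C3) and Tek (Tie2) also had both ovariectomy libraries above both sham libraries, while Ptprc (CD45) overlapped. The part of such cells in the values of the 38 genes was not tested. Col2a1 and Sox9, which define cartilage, were abundant in every library. Of 10 growth plate cartilage markers, 8 were called lower after ovariectomy, against 1.20% of all genes (edgeR, median log2 fold change of the list -0.86). All 10 had both ovariectomy libraries below both sham libraries, against 23.9% of all genes. Osteoblast markers were abundant too, with sums of 78300 and 107000 CPM in the sham pair, 71800 and 65700 CPM in the ovariectomy pair. Of 7 osteoblast markers, 3 were called lower and 1 higher, against 1.20% and 2.98% of all genes (edgeR, median log2 fold change -0.38). Both ovariectomy libraries lay below both sham libraries for 5 of the 7 and above them for 1, against 23.9% and 25.5% of all genes.

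All 38 genes passed the filter on low counts, with at least 65 counts in every library. None of the 38 passed the test between ovariectomy and sham (edgeR quasi-likelihood F test, Benjamini-Hochberg adjusted p under 0.05), where 4.18% of all 17120 genes tested were called (2.98% higher and 1.20% lower). At an unadjusted p under 0.05 there were 4 of the 38 (Mcm5 and Mki67 with fold changes above 1, Ccne2 and Kif20a below 1), which is 10.5%, against 18.4% of all genes. The DESeq2 Wald test called 2 (Mcm5 and Ccne2, where it called 8.21% of all genes). The adjusted p of the 38 lay between 0.0954 for Ccne2 and 0.987 for Ccne1. The median log2 fold change, ovariectomy over sham, was 0.33 over the replication genes and 0.07 over the mitosis genes, against -0.02 over all genes tested.

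A p that misses the threshold does not show that a gene was unaltered, so the 95% intervals of the fold changes were read as well. For 23 of the 38 genes the interval lay wholly within a 2-fold change in either direction (60.5%, against 41.2% of all genes tested), and for 5 of 38 it lay within a 1.5-fold change, against 2670 of all 17120 genes. The median SE of the log2 fold change was 0.27 for the 38 genes and 0.32 for all genes. Both ovariectomy libraries lay above both sham libraries for 14 of the 38 genes and below them for 4, which together is 18 of 38, where the groups did not overlap for 49.3% of all genes (25.5% above and 23.9% below).

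**Figure D1:**
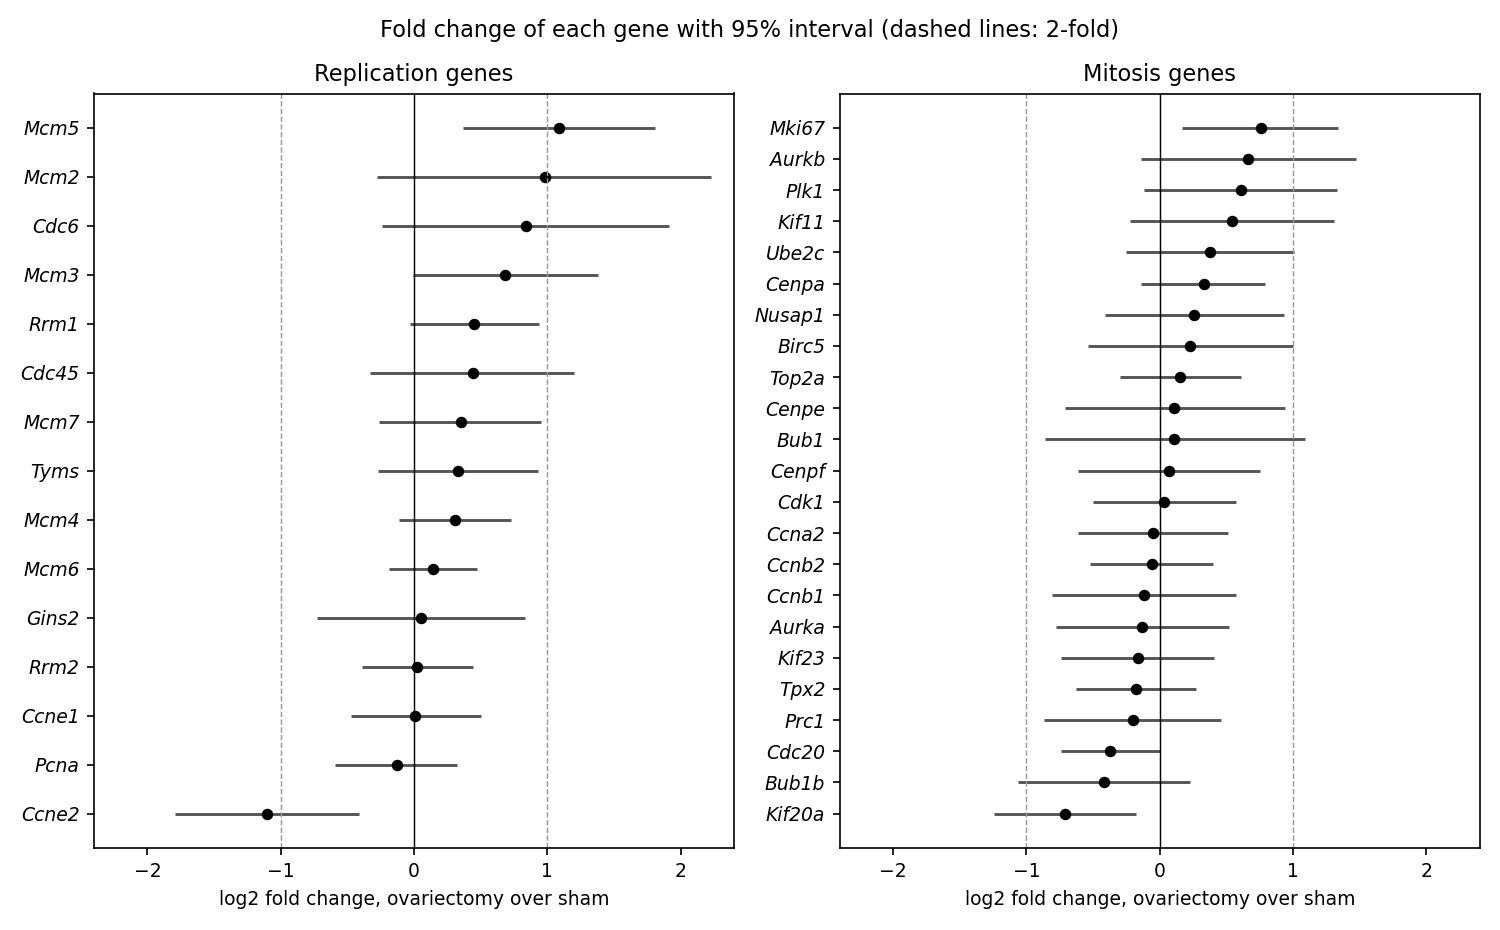
Log2 fold change of each gene (points) with its 95% interval from the edgeR fit (bars), replication genes left and mitosis genes right, ordered by size; the dashed lines mark a 2-fold change. The intervals of Mcm5 and Mki67 lie above 0 and those of Ccne2 and Kif20a below 0 before adjustment for the 17120 genes tested.

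In abundance the 38 genes ran from percentile 30.1 to percentile 92.3 of all tested genes. Per kilobase of exon (the union of annotated exons, which understates the level of genes with long rare exons), the most abundant replication genes were Rrm2 at 25.5, Pcna at 21.6, Mcm6 at 15.4 and Mcm4 at 13.3 CPM per kilobase, and the most abundant mitosis genes were Cdc20 at 21.1, Ccnb2 at 13.5, Ccnb1 at 5.30 and Tpx2 at 4.28 CPM per kilobase (means of 4 libraries). Rrm2 stood at percentile 92.3 of all tested genes by this measure and Cdc20 at percentile 90.6. The lowest were Cenpf and Cenpe, large proteins of the kinetochore, at 0.726 and 0.940 CPM per kilobase. Mki67, the gene of the proliferation antigen Ki-67, stood at percentile 39.3, with 1.19 CPM per kilobase.

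**Figure D2:**
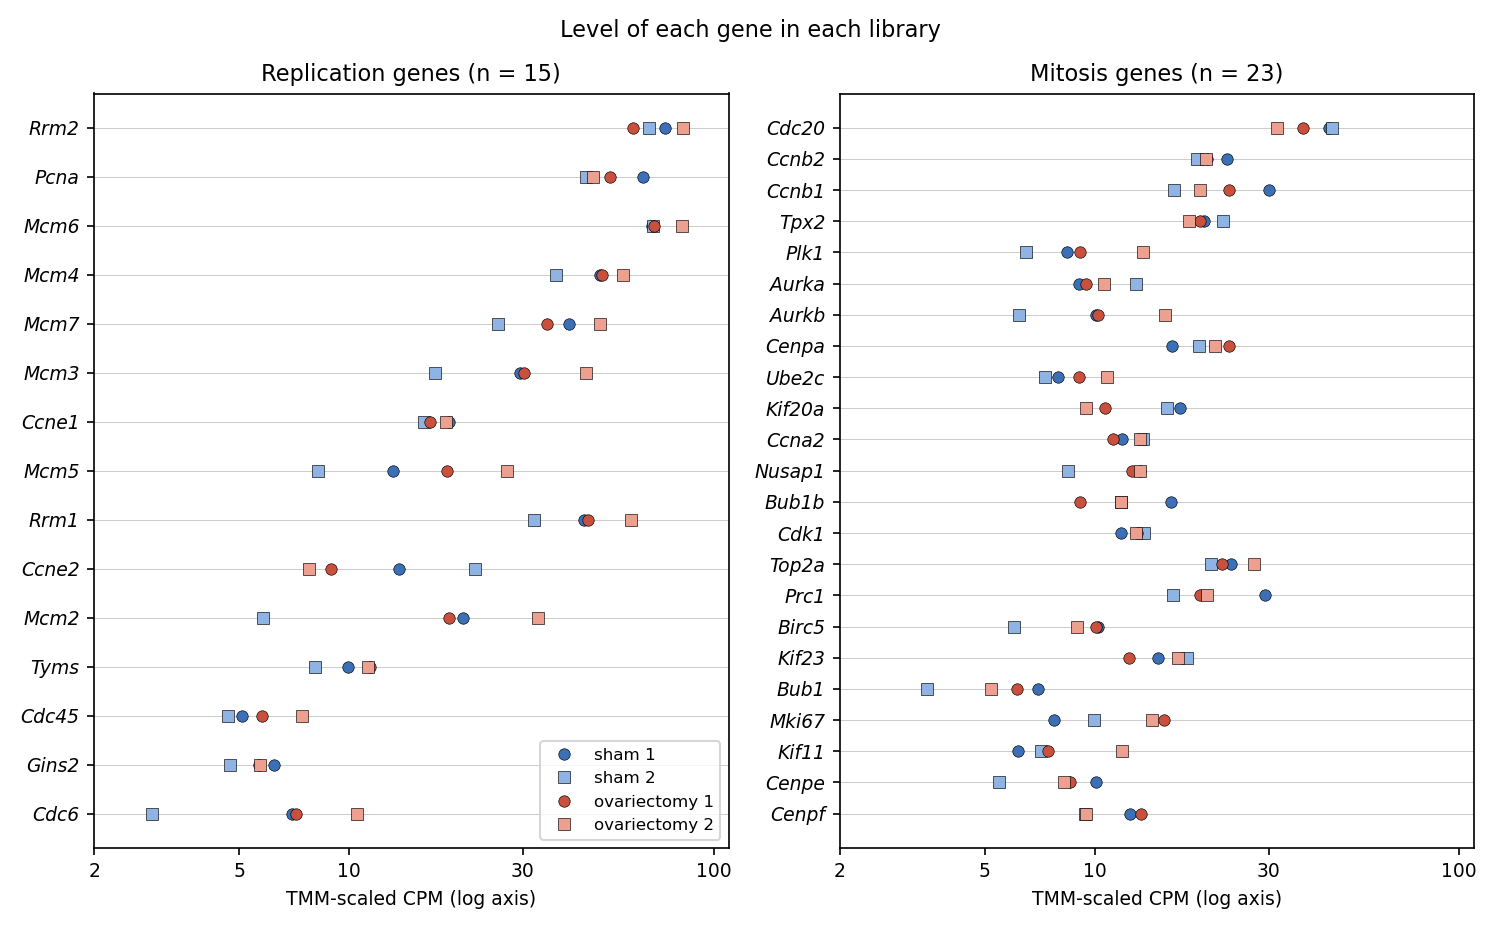
TMM-scaled CPM (log axis) of the 15 replication genes and 23 mitosis genes in each of the 4 libraries, with genes ordered from top to bottom by mean CPM per kilobase. Sham 2 is the lowest point for 12 of the 15 replication genes and for 12 of the 23 mitosis genes. Ovariectomy 2 is the highest for 10 of the replication genes, while Ccne2 runs the other way.

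Among the replication genes, all 6 of the Mcm2-7 helicase had a log2 fold change above 0 (median 0.51, from 0.14 to 1.09). Helicase genes were set apart as a group after their values had been seen. Mcm5 (ENSMUSG00000005410, GRCm38 chromosome 8, 75109569 to 75128439, plus strand) measured 13.2 and 8.24 CPM in the sham pair, 18.6 and 27.2 CPM in the ovariectomy pair. Both ovariectomy libraries were above both sham libraries. The means were 10.7 ± 3.54 and 22.9 ± 6.08 CPM (SD, n = 2), a 2.13-fold difference with an interval from 1.29 to 3.50 that did not pass over all genes (log2 fold change 1.09, SE 0.31, adjusted p = 0.108 in edgeR).

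Mcm2 (chromosome 6, 88883474 to 88898780, minus strand) measured 20.5 and 5.83 CPM in the sham pair, 18.8 and 33.0 CPM in the ovariectomy pair. Sham 1 lay between the ovariectomy libraries and sham 2 stood alone below them, 3.51-fold under sham 1, the widest gap within a pair among the 38 genes. Its log2 fold change of 0.98 ± 0.54 SE (edgeR adjusted p = 0.407) was 2.15 without sham 1 and 0.35 without sham 2. Mcm3 measured 29.4 and 17.2 CPM in the sham pair, 30.2 and 44.6 CPM in the ovariectomy pair (log2 fold change 0.68, SE 0.30, adjusted p = 0.278 in edgeR). Here sham 1 and ovariectomy 1 were nearly level, and the difference between the groups came from sham 2 and ovariectomy 2.

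The more abundant helicase genes had smaller fold changes. Mcm6 (chromosome 1, 128331590 to 128359664, minus strand) measured 67.9 and 68.3 CPM in the sham pair, 68.6 and 81.8 CPM in the ovariectomy pair (log2 fold change 0.14, SE 0.14, adjusted p = 0.695 in edgeR). Its interval, from 0.876-fold to 1.39-fold, overlapped that of Mcm5. Mcm4 measured 48.7 and 36.9 CPM in the sham pair, 49.4 and 56.5 CPM in the ovariectomy pair (log2 fold change 0.31, SE 0.18, adjusted p = 0.437 in edgeR). Mcm7 shares 12.6% of its exon length with other genes, chiefly Ap4m1. It measured 40.1 and 25.6 CPM in the sham pair, 34.9 and 48.7 CPM in the ovariectomy pair, so that its groups overlapped. The protein products form 1 ring with a single copy of each subunit. The fold changes of the helicase genes were not tested against each other.

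Replication genes are textbook targets of the E2F transcription factors, which bind as a dimer near the start site. RefSeq promoter windows on GRCm38 (GRCm38.p6, 250 bases before to 50 after the start) were found for 12 of the 15 replication genes and 19 of the 23 mitosis genes. An E2F motif, searched as TTTCCCGC, TTTCGCGC, TTTGCCGC or TTTGGCGC on both strands, was present in 5 of 12 replication genes (41.7%, Mcm3, Mcm5, Mcm6, Mcm7 and Cdc6), in 1 of 19 mitosis genes (Cdk1) and in 2.60% of all 27025 genes with a window. The windows of Mcm5 and Mcm6 are shown because they hold the helicase genes with the largest and the smallest fold change. Capitals mark the E2F matches, of which those on opposite strands can overlap, and the sequences run 5′ to 3′ on the gene's strand and stop 30 bases after the start.
Mcm5 (chr8:75109259-75109538, plus strand): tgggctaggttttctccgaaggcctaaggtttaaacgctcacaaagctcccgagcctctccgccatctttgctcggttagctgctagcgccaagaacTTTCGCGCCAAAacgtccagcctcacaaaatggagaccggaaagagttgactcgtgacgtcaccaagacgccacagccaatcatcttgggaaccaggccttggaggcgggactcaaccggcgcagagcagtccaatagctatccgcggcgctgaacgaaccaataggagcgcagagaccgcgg
Mcm6 (chr1:128359676-128359955, minus strand): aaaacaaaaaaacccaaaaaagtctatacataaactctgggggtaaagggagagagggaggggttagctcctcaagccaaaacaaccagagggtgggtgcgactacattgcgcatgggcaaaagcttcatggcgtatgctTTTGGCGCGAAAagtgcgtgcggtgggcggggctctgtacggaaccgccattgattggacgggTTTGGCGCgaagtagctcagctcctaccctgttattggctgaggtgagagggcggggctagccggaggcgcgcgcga
Both windows hold an overlapping pair of matches, and the window of Mcm6 holds 1 more. A match is a run of letters and does not show binding. Of 34 other replication genes with a window, 11 held an E2F match (32.4%).

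**Figure D3:**
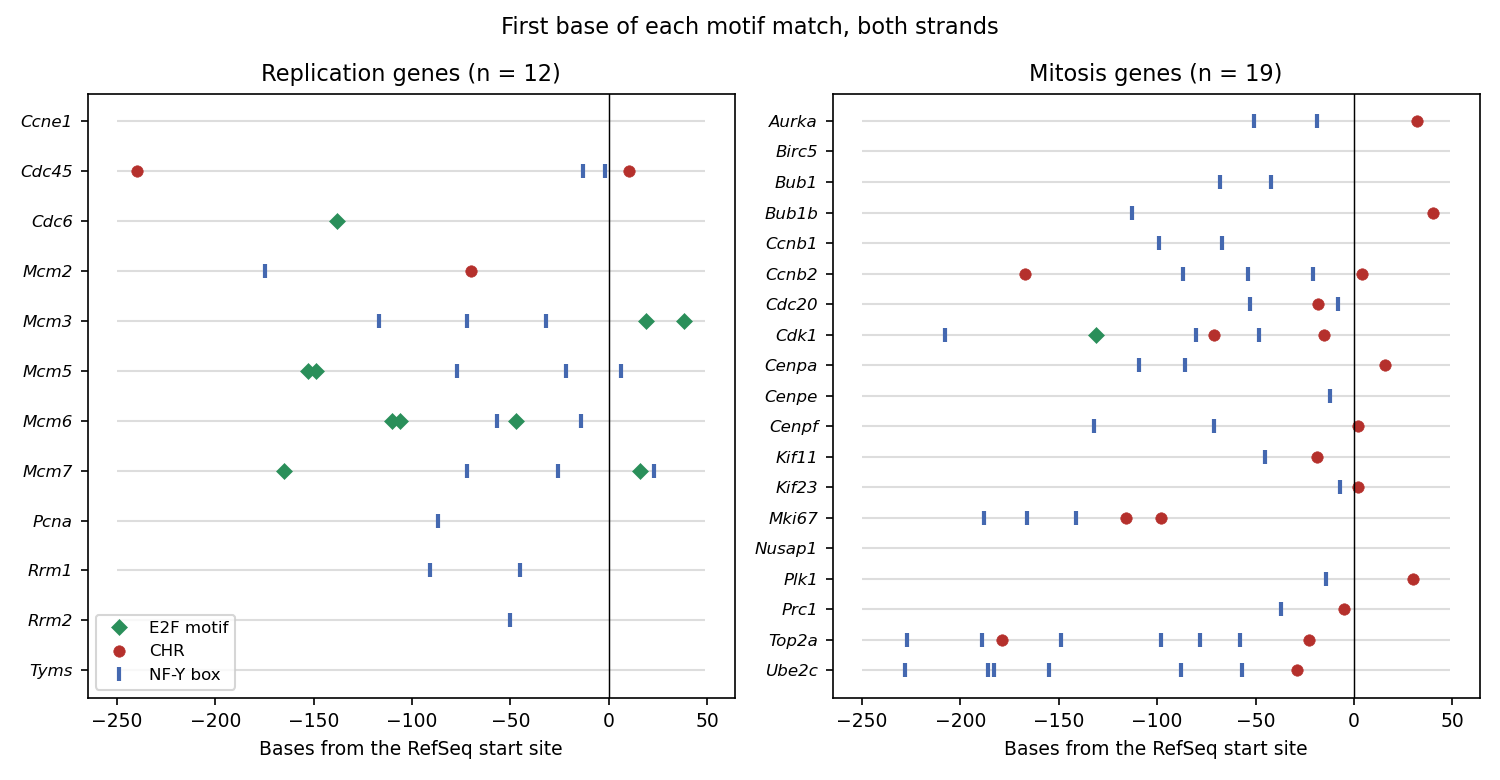
Position of the first base of each motif match (both strands) relative to the RefSeq start site at 0, for the 12 replication genes and 19 mitosis genes with a window; where a gene has several windows, the one with most matches is drawn. E2F matches lie mainly in the helicase genes, and CHR matches, with boxes for the factor NF-Y, in 14 of the 19 mitosis genes.

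Of the factors that load and start the helicase, Cdc6 measured 7 and 2.89 CPM in the sham pair, 7.15 and 10.5 CPM in the ovariectomy pair (log2 fold change 0.84, SE 0.46, adjusted p = 0.406 in edgeR). Sham 2 was again far below the other 3 libraries. Cdc45 was between 4.67 and 7.43 CPM in all 4 libraries. Gins2, between 4.72 and 6.24 CPM, shares 67.3% of its exon length with other genes, chiefly Gse1. Its reads therefore cannot be assigned with confidence where counting ignored strand.

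The genes of nucleotide supply and of the polymerase clamp differed by at most 1.37-fold between groups, and none passed. Rrm2 (chromosome 12, 24708241 to 24714146), the small subunit of ribonucleotide reductase that limits the enzyme in S phase, measured 73.7 and 66.6 CPM in the sham pair, 60.2 and 82.4 CPM in the ovariectomy pair. Both sham values lay between the ovariectomy values, and the fold was 1.02 with an interval from 0.762 to 1.35 (log2 fold change 0.02, SE 0.18, adjusted p = 0.975 in edgeR). Rrm1, the large subunit, showed a log2 fold change of 0.45 (SE 0.21), with 44.0 and 32.2 CPM in the sham pair, 45.3 and 59.2 CPM in the ovariectomy pair (edgeR adjusted p = 0.309). Pcna (chromosome 2, 132249162 to 132253314) measured 64.0 and 44.6 CPM in the sham pair, 52.1 and 46.8 CPM in the ovariectomy pair, with the ovariectomy pair inside the sham range (log2 fold change -0.13, SE 0.20, adjusted p = 0.812 in edgeR). Tyms, thymidylate synthase, lay between 8.06 and 11.4 CPM.

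Cyclin E is made from 2 genes, and neither passed. Ccne2 (ENSMUSG00000028212, chromosome 4, 11191351 to 11204779, plus strand) had the smallest adjusted p of the 38 genes, with 13.7 and 22.2 CPM in the sham pair, 8.92 and 7.79 CPM in the ovariectomy pair. Both ovariectomy libraries lay below both sham libraries, with means of 18.0 ± 6.03 and 8.36 ± 0.799 CPM (SD, n = 2) and a fold of 0.466 (interval 0.289 to 0.752), and the difference did not pass over all genes (log2 fold change -1.10, SE 0.29, adjusted p = 0.0954 in edgeR). Ccne1, with 18.8 and 16.1 CPM in the sham pair, 16.7 and 18.5 CPM in the ovariectomy pair, showed a log2 fold change of 0.01 (SE 0.21, edgeR adjusted p = 0.987). Ccne2 shares 17.4% of its exon length with other genes, chiefly Ints8. Ints8 was at between 2.63 and 5.40 CPM in the 4 libraries and showed a log2 fold change of 0.05 (SE 0.46). The 2 cyclins were not tested against each other.

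The calls of Mcm5 and Ccne2 depended on how the table was tested. Both were called with the DESeq2 Wald test (adjusted p = 0.0217 and 0.0279), with genes restricted to a mean of at least 5 CPM in edgeR (0.0476 and 0.0396, where 11.0% of genes were called), with no filter in edgeR (7.18e-04 and 0.00444, where 4.59% were called) and without sham 1 in edgeR (0.00389 and 0.00282, where 6.79% were called), and neither was called in the other alternatives. Their direction was the same in every alternative. With RLE factors (4.20% of all genes called), upper-quartile scaling (4.24%), library totals (5.11%), limma-voom (5.53%), the replicate number as a block (6.27%) or sham 2 left out (9.54%), 0 of the 38 were called, and with either ovariectomy library left out 0 of all genes were. Without sham 1 the edgeR calls were 5 of 15 replication genes, namely Mcm2, Mcm3, Mcm5 and Cdc6 higher and Ccne2 lower, and without sham 2 there were 0 of 15.

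The mitosis genes were less spread and more evenly divided, with 13 log2 fold changes above 0 and 10 below, from -0.71 to 0.76. None of the 23 was called by edgeR, by DESeq2, by limma-voom or without any 1 library. Of the engine of mitotic entry, Ccnb1 (cyclin B1, chromosome 13, 100778650 to 100786570) measured 30.1 and 16.5 CPM in the sham pair, 23.3 and 19.5 CPM in the ovariectomy pair, and the ovariectomy pair lay inside the sham range (log2 fold change -0.12, SE 0.30, adjusted p = 0.903 in edgeR). Ccnb2 (cyclin B2, chromosome 9, 70407692 to 70421547) measured 23.1 and 19.1 CPM in the sham pair, 20.3 and 20.2 CPM in the ovariectomy pair (log2 fold change -0.06, SE 0.20, adjusted p = 0.935 in edgeR). Cdk1, the kinase that both cyclins activate, measured 11.8 and 13.7 CPM in the sham pair, 13.1 and 13.0 CPM in the ovariectomy pair, a fold of 1.02 with an interval from 0.708 to 1.48. Ccna2 (cyclin A2) lay between 11.2 and 13.6 CPM and shares 12.5% of its exon length with other genes, chiefly Exosc9. Exosc9 measured 10.2 and 7.75 CPM in the sham pair, 14.7 and 13.8 CPM in the ovariectomy pair (adjusted p = 0.225 in edgeR).

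Of 2 genes that work with the anaphase-promoting complex, neither passed. Cdc20 (chromosome 4, 118432901 to 118437352, minus strand), the activator of the complex, measured 43.9 and 44.8 CPM in the sham pair, 37.2 and 31.6 CPM in the ovariectomy pair. Both ovariectomy libraries lay below the tight sham pair (44.4 ± 0.668 against 34.4 ± 3.95 CPM, SD, n = 2), and the difference did not pass (log2 fold change -0.37, SE 0.16, adjusted p = 0.273 in edgeR). Ube2c, the ubiquitin-conjugating enzyme of the same complex, measured 7.94 and 7.30 CPM in the sham pair, 9.05 and 10.8 CPM in the ovariectomy pair, above sham in both (log2 fold change 0.38, SE 0.27, adjusted p = 0.540 in edgeR). It shares 22.8% of its exon length with other genes, chiefly Tnnc2, which had 0 counts in all 4 libraries.

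Many mitosis genes carry a cell cycle genes homology region (CHR, TTTGAA) near the start site, often with CCAAT boxes bound by NF-Y, through which the MuvB complexes hold them off outside G2 and M phase. A CHR match on either strand was present in 14 of 19 mitosis genes with a window (73.7%), in 2 of 12 replication genes and in 20.2% of all genes with a window. All 14 also held a CCAAT match, a combination found in 7.97% of all genes with a window. Of 37 other mitosis genes with a window, 26 held a CHR match (70.3%). The windows of Cdc20 and Ccnb2, the 2 most abundant mitosis genes, are shown with CHR and CCAAT matches in capitals, 5′ to 3′ on the gene's strand.
Cdc20 (chr4:118437314-118437593, minus strand): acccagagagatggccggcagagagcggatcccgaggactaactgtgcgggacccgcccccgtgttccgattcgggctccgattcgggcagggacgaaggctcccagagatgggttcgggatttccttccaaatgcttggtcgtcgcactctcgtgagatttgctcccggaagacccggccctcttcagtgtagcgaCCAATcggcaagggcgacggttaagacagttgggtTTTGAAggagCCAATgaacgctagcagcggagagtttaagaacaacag
Ccnb2 (chr9:70421525-70421804, minus strand): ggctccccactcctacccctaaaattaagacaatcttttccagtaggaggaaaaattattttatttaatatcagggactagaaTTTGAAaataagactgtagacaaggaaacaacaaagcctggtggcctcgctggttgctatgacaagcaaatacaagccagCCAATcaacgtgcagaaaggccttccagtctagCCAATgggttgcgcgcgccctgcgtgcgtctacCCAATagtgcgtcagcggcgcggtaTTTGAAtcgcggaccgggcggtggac
In the window of Cdc20 the CHR match lies between 2 CCAAT boxes. In that of Ccnb2, 1 CHR match lies just after the start site, behind 3 CCAAT boxes, and another far upstream of them. Every match in these 2 windows reads on the gene's own strand.

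Of the mitotic kinases, Aurkb (Aurora B, of the chromosomal passenger complex) measured 10.1 and 6.19 CPM in the sham pair, 10.2 and 15.6 CPM in the ovariectomy pair (log2 fold change 0.66, SE 0.34, adjusted p = 0.376 in edgeR). Plk1 (Polo-like kinase 1) measured 8.39 and 6.50 CPM in the sham pair, 9.09 and 13.6 CPM in the ovariectomy pair (log2 fold change 0.61, SE 0.31, adjusted p = 0.369 in edgeR). In both genes sham 1 and ovariectomy 1 were close to each other, and sham 2 and ovariectomy 2 held the extremes. Aurka (Aurora A, of the spindle poles) showed a log2 fold change of -0.13 (SE 0.28), with 9.05 and 13.0 CPM in the sham pair, 9.47 and 10.6 CPM in the ovariectomy pair. Tpx2, the spindle protein that activates Aurora A, measured 20.0 and 22.5 CPM in the sham pair, 19.4 and 18.1 CPM in the ovariectomy pair (edgeR adjusted p = 0.721).

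The checkpoint kinases that delay anaphase until chromosomes are attached were Bub1b, with 16.2 and 11.8 CPM in the sham pair, 9.13 and 11.8 CPM in the ovariectomy pair (log2 fold change -0.42, SE 0.28, adjusted p = 0.501 in edgeR), and Bub1, between 3.47 and 7 CPM. Their groups overlapped. Cenpa, the histone variant that marks centromeres, measured 16.3 and 19.3 CPM in the sham pair, 23.3 and 21.4 CPM in the ovariectomy pair, above sham in both (log2 fold change 0.33, SE 0.20, adjusted p = 0.459 in edgeR). Cenpe and Cenpf had log2 fold changes of 0.11 and 0.07, and Birc5 (survivin, a partner of Aurora B) one of 0.23 (SE 0.33).

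Among the motor and midzone genes, Kif20a (MKLP2, a kinesin of cytokinesis) measured 17.2 and 15.8 CPM in the sham pair, 10.7 and 9.45 CPM in the ovariectomy pair. The 2 groups stood apart, with means of 16.5 ± 0.998 and 10.1 ± 0.910 CPM (SD, n = 2), a fold of 0.612 (interval 0.423 to 0.885), and the difference did not pass over all genes (log2 fold change -0.71, SE 0.23, adjusted p = 0.147 in edgeR). Kif20a shares 29.3% of its exon length with other genes, chiefly Cdc23. Cdc23 was at between 60.7 and 69.8 CPM and showed a log2 fold change of -0.06 (SE 0.14). Kif11, the motor that separates spindle poles, showed a log2 fold change of 0.54 (SE 0.33), and Kif23, which works beside Kif20a at the midzone, one of -0.16 (SE 0.24). Prc1, which bundles midzone microtubules, was at 29.3 CPM in sham 1 and between 16.4 and 20.3 CPM in the other 3 libraries. It shares 11.1% of its exon length with other genes, chiefly Rccd1. Nusap1 lay between 8.46 and 13.3 CPM.

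Mki67 (ENSMUSG00000031004, chromosome 7, 135689784 to 135716361, minus strand), which coats mitotic chromosomes and is the usual stain for cycling cells, had the largest positive log2 fold change of the mitosis genes. It measured 7.76 and 9.97 CPM in the sham pair, 15.5 and 14.4 CPM in the ovariectomy pair, with both ovariectomy libraries above both sham libraries. The means were 8.87 ± 1.56 and 15.0 ± 0.762 CPM (SD, n = 2), a 1.69-fold difference with an interval from 1.13 to 2.53 (log2 fold change 0.76, SE 0.25, adjusted p = 0.159 in edgeR). It was not called in any alternative, with the lowest adjusted p at 0.0593, without sham 2. Top2a, topoisomerase II alpha, whose RNA marks S to M phase, measured 23.6 and 20.9 CPM in the sham pair, 22.3 and 27.3 CPM in the ovariectomy pair, a fold of 1.11 (interval 0.810 to 1.53).

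Read per library, sham 2 was lowest in the sums of both the replication and the mitosis genes. The highest library differed, ovariectomy 2 for replication and sham 1 for mitosis. Summed CPM of the 15 replication genes was 462 in sham 1, 364 in sham 2, 434 in ovariectomy 1 and 541 in ovariectomy 2. The groups overlapped, since sham 1 was above ovariectomy 1, and the means (413 ± 69.4 and 488 ± 76.2, SD, n = 2) differed by about their SD. Summed CPM of the 23 mitosis genes was 361, 315, 334 and 345 in the same order, with the ovariectomy pair inside the sham range and means of 338 ± 32.3 and 339 ± 8.14. The mean difference of the mitosis sum was 0.429% with TMM and -2.61% with upper-quartile scaling, so its sign depended on the scaling. The ratio of the replication sum to the mitosis sum, which does not depend on scaling, was 1.28 and 1.16 in the sham pair, against 1.30 and 1.57 after ovariectomy. With 2 libraries against 2, an exact two-sided permutation test cannot give a p below 0.333, so none is given.

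**Figure D4:**
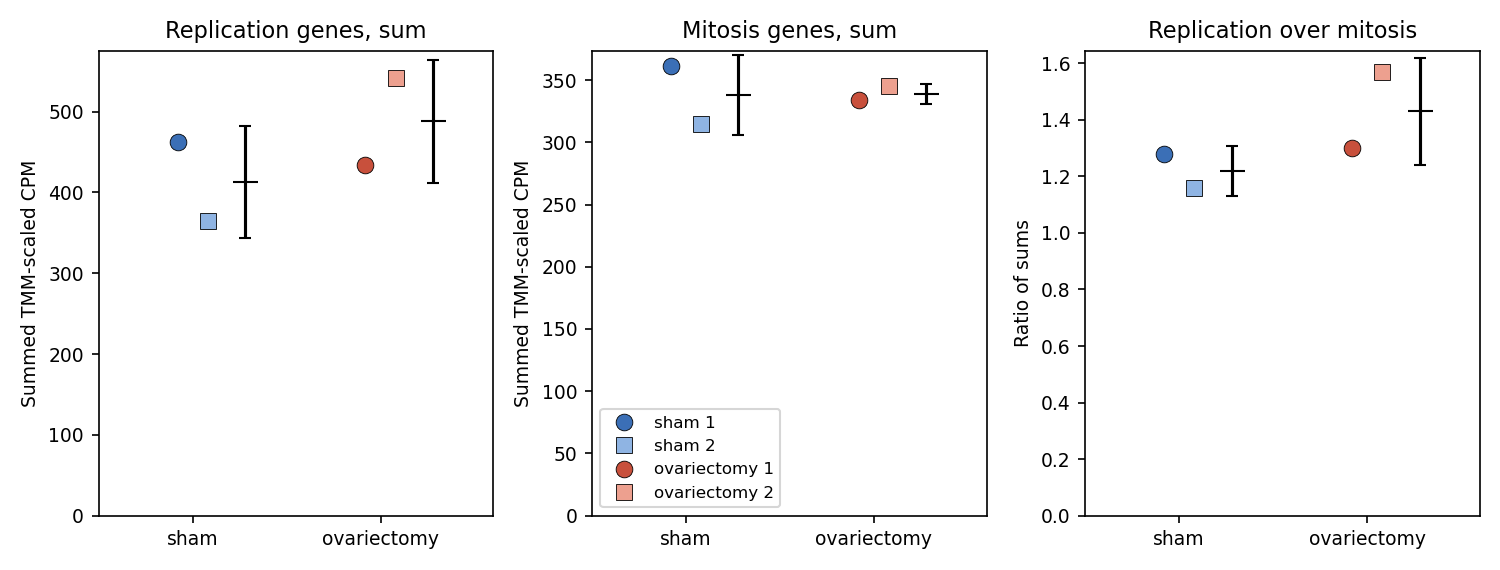
Summed TMM-scaled CPM of the 15 replication genes and the 23 mitosis genes, and the ratio of the sums, in each library (points), with the mean ± SD of each group (n = 2) as bars. The replication sum runs from 364 in sham 2 to 541 in ovariectomy 2, and the mitosis sum stays between 315 and 361.

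The spread within groups was of the same order as the difference between them. Sham 2 was below sham 1 for 13 of 15 replication genes, with a median log2 difference of -0.40, and for 14 of 23 mitosis genes, with a median of -0.17. Over all genes tested this median was 0.00. Ovariectomy 2 was above ovariectomy 1 for 12 of 15 replication genes (median 0.33) and for 11 of 23 mitosis genes (median 0.00). Sham 2 was the lowest of the 4 libraries for 24 of the 38 genes (12 of 15 replication and 12 of 23 mitosis genes), against 4134 of all 17120 genes. Ovariectomy 2 was the highest for 16 of the 38, against 4143 of 17120. Within the replication genes, the helicase sum was 220 and 162 CPM in the sham pair, 220 and 292 CPM in the ovariectomy pair, and the sum of the other 9 genes was 242 and 202 CPM in the sham pair, 213 and 250 CPM in the ovariectomy pair.

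**Figure D5:**
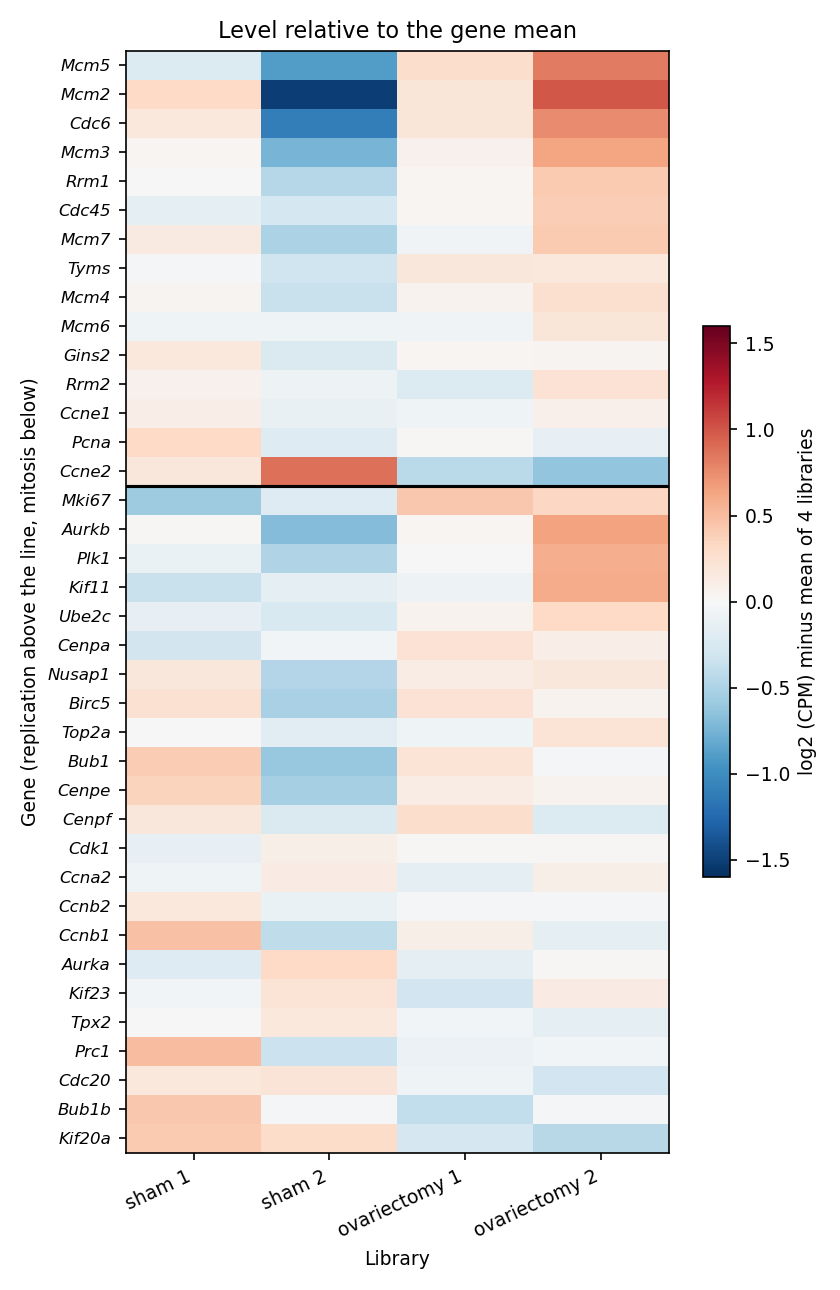
Colour gives log2 CPM of each gene in each library minus the gene's mean over the 4 libraries, replication genes above the black line and mitosis genes below, each ordered by fold change. Sham 2 is blue and ovariectomy 2 red for most replication genes, Ccne2 shows the reverse, and the mitosis genes share no single order of libraries.

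Some markers of blood lineages, which include dividing progenitors, moved with the groups. Summed CPM of 13 erythroid markers was 69.8 and 55.3 in the sham pair, against 199 and 292 after ovariectomy. By edgeR 6 of 12 tested were called higher, against 2.98% of all genes. Most of the rise in the erythroid sum came from Car1 and Car2. The groups overlapped for Alas2 and Tfrc (log2 fold changes -0.40 and 0.01). The haemoglobin genes Hbb-bs and Hba-a1 were higher in both ovariectomy libraries and were not called (adjusted p = 0.132 and 0.0847 in edgeR). Of the 13 erythroid markers 5 had 0 counts in at least 1 library, and Rhag had 0 in both sham libraries, as had the granulocyte progenitor gene Ctsg. Summed CPM of 10 granulocyte progenitor and neutrophil markers was 142 and 89.7 in the sham pair, against 191 and 298 after ovariectomy. By edgeR 3 of 10 were called higher, against 2.98% of all genes. Most of the rise in this sum came from Mpo, with 3.39 and 0.49 CPM in the sham pair, 58.3 and 110 CPM in the ovariectomy pair. For 4 of the 10 (Ngp, Camp, Ltf and S100a9) the groups overlapped, with log2 fold changes between 0.17 and 0.29. Of 7 lymphocyte markers tested, 2 were called higher by edgeR, against 2.98% of all genes. At an unadjusted p under 0.05 there were 4 of 7, against 18.4% of all genes, and the groups overlapped for 3. Of those called, Ebf1, which stromal cells express too, measured 14.4 and 20.6 CPM in the sham pair, 66.7 and 87.9 CPM in the ovariectomy pair. Cd79a and Cd79b also had both ovariectomy libraries above both sham libraries and were not called (adjusted p = 0.174 and 0.128 in edgeR). Ebf1 made up most of the lymphocyte sum (17 and 25.6 against 77 and 110 CPM), and 5 of the 10 markers had 0 counts in at least 1 library. Pericyte and smooth muscle markers summed to 57.3 and 101 CPM in sham and to 396 and 463 CPM after ovariectomy. By edgeR 3 of 7 were called higher, against 2.98% of all genes. Most of the rise in the pericyte sum came from 1 gene. The groups overlapped for Pdgfrb and Notch3 (log2 fold changes 0.33 and 0.89). By edgeR 0 of 8 endothelial and 0 of 7 tested monocyte markers were called. At an unadjusted p under 0.05 there were 5 of 7 monocyte and 1 of 8 endothelial markers, all higher, against 18.4% of all genes. The monocyte list summed to 65.9 and 77.3 CPM in sham and to 104 and 142 CPM after ovariectomy, and the groups overlapped for 2 of the 7. In the erythroid and granulocyte sums, as in the replication sum, sham 2 was lowest and ovariectomy 2 highest. In the lymphocyte, monocyte, endothelial and pericyte sums sham 1 was lowest and ovariectomy 2 highest, and in the mitosis sum sham 1 was highest. Growth plate cartilage markers summed to 107000 and 99400 CPM in sham and to 62600 and 56900 CPM in ovariectomy libraries. Their part in the values of the replication and mitosis genes was likewise not tested.

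Other genes of the same machinery gave no call by edgeR either. Of 42 further replication genes, 0 were called in either direction by edgeR, and their median log2 fold change was 0.09. Only 4 of these 42 (9.52%) had an unadjusted p under 0.05, against 18.4% of all genes. The smallest p belonged to Gins3, a GINS subunit, with 8.65 and 7.84 CPM in the sham pair, 4.57 and 2.86 CPM in the ovariectomy pair (log2 fold change -1.15, SE 0.36, adjusted p = 0.138 in edgeR), and to Slbp, which binds the stem-loop of histone mRNAs, with 217 and 185 CPM in the sham pair, 145 and 157 CPM in the ovariectomy pair (log2 fold change -0.41, SE 0.13, adjusted p = 0.146 in edgeR). Of 43 further mitosis genes, 0 were called by edgeR (2 at an unadjusted p under 0.05, against 18.4% of all genes), with a median of 0.05. Kif18a, a kinesin that damps chromosome movement, showed a log2 fold change of 1.01 (SE 0.38), and Cdc25b, a phosphatase that activates Cdk1, one of 0.72 (SE 0.29), with adjusted p = 0.215 and 0.243 in edgeR.

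Upstream regulators were read from lists of their own. Of 20 genes of the E2F, Rb and DREAM regulators, 0 were called by edgeR, and their median log2 fold change was 0.16. Only 2 of these 20 (10%) had an unadjusted p under 0.05, against 18.4% of all genes. Rbl2 (p130), the pocket protein of resting cells, measured 44.1 and 42.6 CPM in the sham pair, 26.4 and 33.7 CPM in the ovariectomy pair (log2 fold change -0.53, SE 0.17, adjusted p = 0.157 in edgeR), and E2f2 showed a log2 fold change of 1.09 (SE 0.46, edgeR adjusted p = 0.266). Of 10 G1 genes, 1 was called by edgeR, against 4.18% of all genes, and the median log2 fold change was -0.02. At an unadjusted p under 0.05 there were 3 of 10, against 18.4% of all genes. Besides Myc these were Ccnd2, higher (log2 fold change 0.79, SE 0.22), and Cdc25a, lower (-0.77, SE 0.23). The called gene, the transcription factor gene Myc, rose from 835 and 709 CPM in sham to 1220 and 1240 CPM in ovariectomy libraries (log2 fold change 0.67, SE 0.11, adjusted p = 0.0221 in edgeR). The call of Myc was lost without ovariectomy 1 (edgeR adjusted p = 0.309) and without ovariectomy 2 (0.318), when edgeR called 0 of all genes. Myc drives cell growth and entry into the cycle.

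The brakes of the cycle gave no call either. Of 7 inhibitors of cyclin-dependent kinases, 6 were tested and 0 called by edgeR (0 at an unadjusted p under 0.05), with a median log2 fold change of -0.21. Cdkn1a (p21) measured 271 and 320 CPM in the sham pair, 368 and 335 CPM in the ovariectomy pair (edgeR adjusted p = 0.371), and Cdkn1c (p57), which is high in cartilage, measured 46.9 and 45.5 CPM in the sham pair, 40.5 and 20.9 CPM in the ovariectomy pair (edgeR adjusted p = 0.338). Cdkn2a (p16 and p19), with between 0 and 3 counts per library, was too low to test. Of 12 checkpoint and anti-proliferative genes, 0 were called by edgeR, with a median of 0.19. At an unadjusted p under 0.05 there were 3 of the 12, against 18.4% of all genes. Gadd45a, a stress-induced gene that can hold cells in G2, measured 6.96 and 6.77 CPM in the sham pair, 15.6 and 13.5 CPM in the ovariectomy pair (log2 fold change 1.08, SE 0.25, adjusted p = 0.0613 in edgeR), and Wee1, the kinase that inhibits Cdk1, measured 14.4 and 10.7 CPM in the sham pair, 21.6 and 24.0 CPM in the ovariectomy pair (log2 fold change 0.86, SE 0.23, adjusted p = 0.0954 in edgeR).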

How the data were processed

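The authors deposited 1 table of raw read counts per gene for the 4 libraries. Their tools were Trim Galore 0.6.6 for trimming and featureCounts 2.0.1 for counting, with GRCm38 (mm10) as build, per the submitters' processing notes. The sources used here give no aligner, annotation release, strand setting or filter. Per the labels' protocols, RNA came from TRIzol and the library kit was SMARTER mRNA-Seq.

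Symbols, positions and exon lengths came from GENCODE M21, which matched 55227 of 55487 gene IDs. Genes were filtered with filterByExpr, scaled with TMM and compared in edgeR 4.0.16 (R 4.3.3) by quasi-likelihood F test, two-sided, on group alone with 2 residual degrees of freedom, with Benjamini-Hochberg adjustment over all 17120 genes tested. The spread of each gene was moderated with that of all genes tested (5.29 prior degrees of freedom). The SE is the log2 fold change divided by the square root of F. Medians within pairs used log2 of CPM plus 0.5. Each library was counted as a sample. Counts differed beyond sampling noise within the sham and the ovariectomy pair (chi-square per degree of freedom 28.6 and 13.9). This does not show that the libraries of a group came from separate animals, since library preparation also adds such spread. Alternatives were other scalings, DESeq2 1.42.0 without independent filtering, limma-voom (limma 3.58.1), other filters, a replicate block and each library left out. Replicate numbers are shared by the groups, but deviations from the group means correlated at 0.0116 across genes, so no pairing was assumed.

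Members, lists and tests were chosen with earlier results of these data known. Values in full were given for the 4 members per set highest per kilobase, and the 2 with the largest and the 2 with the smallest log2 fold change. From each other cell cycle list, up to 4 called genes were named, or else the 2 with the smallest p. This rule did not cover the cell type markers. Further genes were named after their values were seen. Promoter windows came from RefSeq (GRCm38.p6) and were shown for up to 2 of the members given in full per set that held the set's motif. The values of 1 marker gene are not reported here.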

Additional observations from a re-analysis of the deposited data

How the results depend on the processing

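The count of called replication genes, 0, was 2 with the DESeq2 Wald test, 2 at a mean of at least 5 CPM and 4 with no filter (Mcm2 and Mcm3 beside Mcm5 and Ccne2), and it ran from 0 to 5 when 1 library was left out. The count of called mitosis genes was 0 in every alternative. Of all genes, 1406 were called with DESeq2, 1656 with no filter and 1105 at a mean of at least 5 CPM, against 716, and between 0 and 1835 with 1 library left out. Of the genes of the other cell cycle lists (132 tested), against 1 there were 2 calls with library totals, 5 with DESeq2, 3 with limma-voom, 6 with no filter, 3 at a mean of at least 5 CPM, 3 with the replicate block, and between 0 and 7 with 1 library left out. The replicate block called 0 replication and 0 mitosis genes, so it changed no call among the 38, and gave medians of 0.34 and 0.06. The mitosis median of 0.07 was 0.17 with library totals, which shifted the median of all genes from -0.02 to 0.09, and ran from -0.02 to 0.28 with 1 library left out, while the replication median ran from 0.16 to 0.50.

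The sign of some genes turned, with upper-quartile scaling for Rrm2 (-0.02), Ccne1 (-0.03) and Cdk1 (-0.01), with library totals for Ccnb2 (0.05) and Ccna2 (0.06), and with limma-voom for Rrm2 (-0.01). With 1 library left out the log2 fold change ran from -0.36 to 0.15 for Pcna, from -0.21 to 0.25 for Rrm2, from -0.08 to 0.13 for Ccne1, from -0.12 to 0.27 for Gins2, from -0.48 to 0.38 for Ccnb1, from -0.18 to 0.09 for Ccnb2, from -0.17 to 0.09 for Ccna2, from -0.06 to 0.15 for Cdk1, from -0.29 to 0.71 for Bub1, from -0.36 to 0.16 for Aurka, from -0.09 to 0.66 for Birc5, from -0.25 to 0.62 for Cenpe, from -0.19 to 0.31 for Cenpf, from -0.38 to 0.06 for Kif23, from -0.02 to 0.63 for Nusap1 and from -0.55 to 0.28 for Prc1. The cause was not tested. With 2 libraries a group, the interval of 15 of the 38 genes reached a 2-fold change, although the lowest count of any of them in a library was 65.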
